A study of Arabidopsis thaliana with 8 samples.

Results

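The genes described here were bright on the arrays of plants aged 4 weeks and not on those of plants aged 3 weeks. Of 692 probes that the platform annotation pairs with exactly 1 gene, 79 (11.4%) met this rule, and they were chosen by their deposited intensities at both ages. Each of the 3439 probes was ranked within its array, the ranks were averaged over the 4 arrays of an age, and a probe was kept when its mean rank lay in the top 20% at 4 weeks but not at 3 weeks. A kept probe also had to be above 0 on at least 1 array of 3 weeks. A list of 14 genes of photosynthesis, assembly and chlorophyll synthesis was left out by name, and 0 of them would otherwise have been members. The rank pattern alone, without the demand for a value above 0 at 3 weeks, was met by 90 probes with 1 gene, and the remaining 11 were listed at 0 on every 3-week array.

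The study hybridised total RNA of wild-type Arabidopsis thaliana, accession Columbia 0, from plants aged 4 weeks (4 arrays) and 3 weeks (4 arrays). The plants of both ages carried no transgene or treatment that the labels name. Which organ was taken, how the plants were grown, what array was used and how many plants stand behind an array is not given in the sources used here, so the spread between arrays may be technical. The deposited values are linear intensities between 0 and a ceiling just under 100, and their depth over background is not known. The array medians were 0.390 to 0.445 at 4 weeks and 0.0239 to 0.0308 at 3 weeks, and their mean was 15.2 times as high at 4 weeks. The share of probes listed at 0 was 13.4% to 13.7% at 4 weeks, against 26.9% to 32.0% at 3 weeks. A rank orders spots on an array. It does not order transcript amounts of different genes, because probes differ in how well they bind.

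Between these ages an Arabidopsis rosette goes on adding and expanding leaves, and older leaves shift from growth to supplying sugar to the rest of the plant. Most proteins of the chloroplast and the mitochondrion are encoded in the nucleus and imported, among them enzymes of amino acid, nucleotide and fatty acid synthesis. Other nuclear genes supply proteins of the mTERF, pentatricopeptide and CRM families, through which the nucleus controls how organelle transcripts are made, spliced and edited. Genes of these kinds occur among the 79. All 79 matched a protein-coding locus of the RefSeq table of assembly TAIR10.1, but only AILP1, LAS, MAMI, AT-HF and SIS had a symbol other than the locus code there. What the products of the other loci do is given from general knowledge of the locus, for 35 genes in all, and is left out for the remaining 44.

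The ages were what chose the genes, so their differences between ages are a description and carry no test here. The mean rank of a member, as a percent of all probes, ran from 79.8 to 98.6 at 4 weeks (median 89.1) and from 19.5 to 78.9 at 3 weeks (median 52.3). The line of the top 20% lay at 79.0 at 4 weeks and 79.4 at 3 weeks. At 3 weeks 19 members had a mean rank under 40, 31 lay from 40 to 60, 16 from 60 to 70 and 13 between 70 and the line. Most of the 79 were therefore not near the line at 3 weeks, but in the middle or lower part of the array. The order of the genes at 4 weeks showed little relation to that at 3 weeks. Over the 79, mean ranks at 4 and 3 weeks had a Spearman correlation of 0.06 and a Pearson correlation of 0.04. These values describe genes that share the same 8 arrays and whose ranks the rule bounds on both sides.

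**Figure D1:**
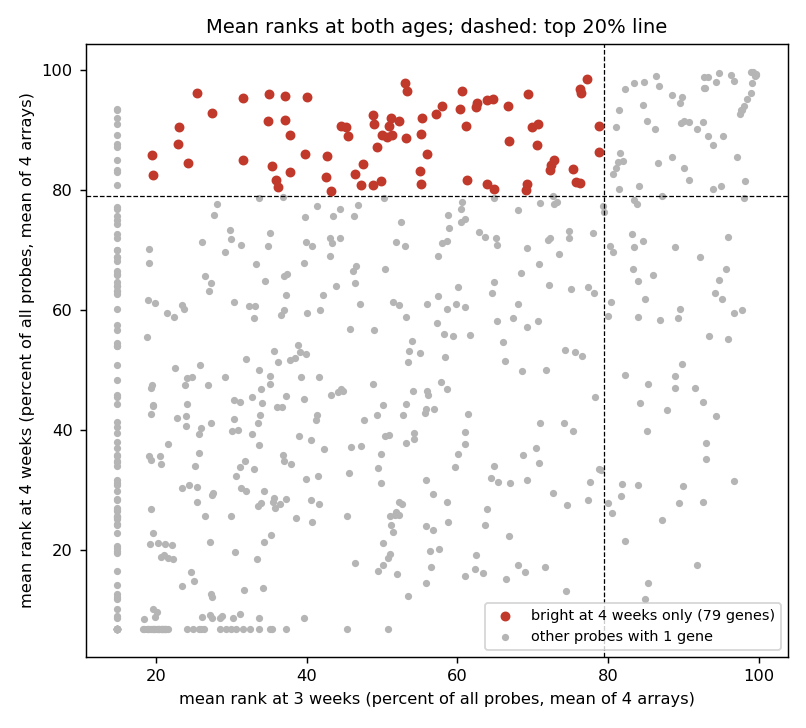
Mean rank at 4 weeks (vertical axis) against mean rank at 3 weeks (horizontal axis), each in percent of all probes and averaged over 4 arrays, for the 692 probes with 1 gene. The 79 members (red) fill the upper field left of the vertical line, from a rank of 19.5 to 78.9 at 3 weeks, so they do not crowd at the line.

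Close to the lines the choice was fine. AT5G19750, AT1G70200 and AT2G46050 lay just inside the 4-week line, with mean ranks of 79.8, 80.0 and 80.2. CRR21, AT3G46950 and AT3G51320 lay just outside it, with 78.9, 78.8 and 78.8. At the 3-week line AT5G03370, MAMI and AT2G36480 were the members nearest below, with 78.9, 78.7 and 77.2, and AT3G16760, AT5G14910 and AT3G17550, bright at both ages, the nearest above, with 80.6, 81.1 and 81.1. The intensities on both sides of a line were close. AT5G19750 had 0.896 ± 0.121 at 4 weeks and CRR21 had 0.866 ± 0.068 (SD, n = 4 each).

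In deposited intensity the members were bright for the array but far from its ceiling. The 4-week means ran from 0.895 to 6.52 with a median of 1.32, and the 3-week means from 0.00139 to 0.199 with a median of 0.0386. At 4 weeks 17 of the 79 had a mean under 1, 48 from 1 to 2, 11 from 2 to 3 and 3 above 3. The 79 probes together held 3.69%, 3.71%, 3.83% and 3.78% of the summed intensity of the 4-week arrays, against 0.134%, 0.116%, 0.172% and 0.160% of that of the 3-week arrays. The 51 genes bright at both ages by the same line had a median 4-week intensity of 1.55 and a median 3-week intensity of 0.574. At 4 weeks their range, 0.884 to 35.9, reached further up than that of the 79 genes. No test was made of these differences between sets, since the ranks define the sets.

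On every one of the 79 probes all 4 deposited values at 4 weeks were above all 4 at 3 weeks. The same held for 68.3% of all 3439 probes, because the 4-week arrays were brighter over most of their probes. After quantile normalization 75 of the 79 still did not overlap between ages, against 27.9% of all probes, and AT3G59300, AT5G02710, AT4G08940 and AT3G19120 did overlap. In limma's all-probe test 73 of the 79 were past a Benjamini-Hochberg adjusted p of 0.05 and higher at 4 weeks, beside 29.2% of all probes, and 0 were lower, beside 27.4%. A log2 difference of at least 1 was met by 66 of the 79, beside 19.5% of all probes. Because the rule used the same contrast, nothing is read from these counts.

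AT2G36480 had the highest mean rank at 4 weeks. Its intensity was 6.26, 6.01, 7.26 and 6.54 on the 4-week arrays, against 0.164, 0.148, 0.170 and 0.151 on the 3-week arrays. Both sets of 4 values were tight, and the gene was already close to the line at 3 weeks. In deposited mean it was 41.1-fold higher at 4 weeks. On the log2 scale the difference was 4.12 (SE 0.10) after quantile normalization, and 1.43 when arrays were scaled to a common median.

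AT3G52070 had 4.58, 4.58, 3.88 and 3.75 at 4 weeks, against 0.0695, 0.00675, 0.0359 and 0.0423 at 3 weeks. It had the largest normalized log2 difference of the 79, 4.36 (SE 0.26), which was 2.94 with a common median. Its 3-week values differed widely among themselves, with replicate 2 lowest. The 4-week values had a coefficient of variation of 10.6%, with replicates 1 and 2 above 3 and 4.

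AILP1 encodes a protein of the kind induced by aluminium in plants. Its values were 2.80, 2.95, 2.49 and 2.60 at 4 weeks, against 0.0521, 0.0195, 0.0416 and 0.0284 at 3 weeks. Replicates 1 and 2 were the higher ones at 4 weeks, and the groups lay far apart. The deposited mean was 76.6-fold higher at 4 weeks and the normalized log2 difference 3.48 (SE 0.14), or 2.42 with a common median. AT1G01730 was of like size, with 2.99, 2.89, 2.79 and 2.42 at 4 weeks, against 0.0499, 0.0556, 0.0595 and 0.0438 at 3 weeks. Its log2 difference was 3.23 (SE 0.09), and 1.80 with a common median.

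AT4G20300 and AT3G57570 were less even. AT4G20300 had 3.21, 3.57, 2.75 and 2.95 at 4 weeks, against 0.208, 0.198, 0.117 and 0.103 at 3 weeks. At both ages its replicates 1 and 2 lay above 3 and 4. Its log2 difference was 2.73 (SE 0.13), and 0.44 when arrays were scaled to a common median. AT3G57570 had 2.70, 2.83, 1.92 and 3.65 at 4 weeks, against 0.156, 0.0811, 0.188 and 0.205 at 3 weeks. Its lowest and highest 4-week arrays, replicates 3 and 4, were far apart. Its log2 difference of 2.44 had an SE of 0.27 and was 0.25 with a common median.

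**Figure D2:**
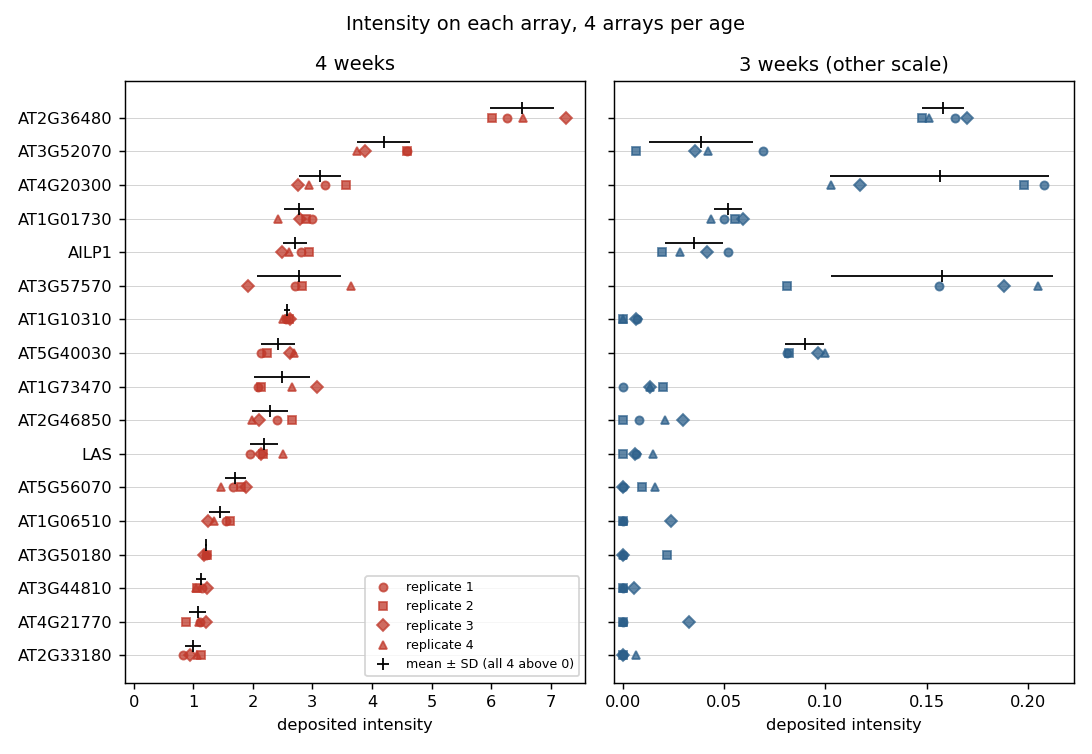
Deposited intensity on each array (horizontal axes, different scales) at 4 weeks, left, and 3 weeks, right, for the 17 members with the highest mean rank at 4 weeks or the largest gain in mean rank. Points are the 4 replicates and black marks the mean with SD where all 4 values are above 0. At 4 weeks the values run up to 7.26 and at 3 weeks no value exceeds 0.208.

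The largest gains in mean rank belonged to genes that were at or near 0 at 3 weeks. This is a consequence of the rule, which held all 4-week ranks between the line and the top of the scale. A value of 0 has no known level, and no fold is given for a gene listed at 0 on any 3-week array. Of the 79, 58 were above 0 on all 4 arrays of 3 weeks, 13 on 3, 3 on 2 and 5 on 1. The mean rank of 9 members at 3 weeks lay below the rank at which the normalization floor was set, 1099 of 3439. For these, AT1G10310 and LAS among them, the size of the log2 difference depends on the floor. Raising the floor to the median probe moved AT1G10310 from 4.24 to 3.5 and LAS from 3.82 to 3.17. Of the 79, 55 were above the floor on all 8 arrays, and values set to the floor can make an SE smaller.

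AT1G10310, a reductase of pterin aldehydes in folate metabolism, had the largest gain, 70.9 percentage points of mean rank. It had 2.56, 2.60, 2.62 and 2.51 at 4 weeks, against 0.00715, 0, 0.00662 and 0 at 3 weeks. The 4-week values varied by only 1.81% (coefficient of variation), and all 3-week values lay near 0. The log2 difference after normalization was 4.24 (SE 0.11).

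AT2G32040, a transporter of folates in the plastid envelope, is the other gene of folate among the members. Its values were 0.922, 0.941, 0.913 and 0.895 at 4 weeks, against 0.0224, 0.0119, 0.0264 and 0.0293 at 3 weeks. It lay just above the 4-week line and was about as even across the 4-week arrays as AT1G10310. Its log2 difference was 1.46 (SE 0.08).

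LAS encodes a GRAS-family transcription regulator needed to form axillary meristems, the buds in the axils of leaves. It had 1.95, 2.17, 2.13 and 2.51 at 4 weeks, against 0.00661, 0, 0.00631 and 0.0151 at 3 weeks. The 4-week values did not separate by replicate pair, and on the 3-week arrays the gene was near the zeros. The log2 difference was 3.82 (SE 0.18) and the gain in mean rank 63.8 percentage points.

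AT3G44810, which encodes an F-box protein, was the member with the lowest mean rank at 3 weeks. It was above 0 on replicate 3 only, at 0.00557, and had 1.15, 1.06, 1.23 and 1.05 at 4 weeks. AT2G33180, AT3G50180, AT1G06510 and AT4G21770 were likewise above 0 on a single 3-week array, with values there of 0.00656, 0.0219, 0.0238 and 0.0326. Their 4-week values ran from 0.835 to 1.13, 1.18 to 1.23, 1.25 to 1.62 and 0.878 to 1.22. The array above 0 was replicate 3 for AT1G06510 and AT4G21770 too, replicate 2 for AT3G50180 and replicate 4 for AT2G33180, and without that array a gene would not have met the rule.

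AT1G73470, AT2G46850 and AT5G56070 complete the 10 largest gains, each at 0 on 1 or 2 arrays of 3 weeks. AT1G73470 had 2.08, 2.14, 3.07 and 2.65 at 4 weeks, against 0, 0.0202, 0.0136 and 0.0137 at 3 weeks. AT5G56070 had 1.67, 1.80, 1.88 and 1.47 at 4 weeks, against 0, 0.00960, 0 and 0.0161 at 3 weeks. Replicates 1 and 2 were the low ones at 4 weeks for AT1G73470, while those of AT5G56070 overlapped with 3 and 4. The log2 differences were 3.91 (SE 0.27) and 3.23 (SE 0.17).

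Of the members 11 have products in metabolism, with 4-week means from 0.918 to 2.57 and log2 differences from 0.48 to 4.24. AT-HF encodes the bifunctional glutamine amidotransferase and cyclase of histidine synthesis in the plastid. Its values were 1.19, 1.21, 1.58 and 1.40 at 4 weeks, against 0, 0.0235, 0.0187 and 0.0210 at 3 weeks. Replicates 3 and 4 were the higher ones at 4 weeks, and the log2 difference was 2.43 (SE 0.23). AT2G35390 encodes a phosphoribosyl pyrophosphate synthetase, whose product feeds both histidine and nucleotide synthesis. It had 1.36, 1.34, 1.28 and 1.3 at 4 weeks, against 0.127, 0.00681, 0.0765 and 0.0193 at 3 weeks. Its 3-week values spread widely, and the log2 difference of 1.85 had an SE of 0.36.

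AT1G24360 encodes a ketoacyl-acyl carrier protein reductase of plastid fatty acid synthesis. It was even at both ages, with 1.17, 1.23, 1.24 and 1.19 at 4 weeks, against 0.0974, 0.102, 0.101 and 0.0889 at 3 weeks. Its deposited mean was 12.4-fold higher at 4 weeks, less than the ratio of the array medians, and its log2 difference of 1.04 (SE 0.06) turned to -0.30 when arrays were scaled to a common median. AT4G13550 encodes a chloroplast lipase that acts on galactolipids under heat. It had 1.68, 1.57, 1.71 and 1.63 at 4 weeks, against 0.00791, 0.0538, 0.0318 and 0.0207 at 3 weeks, with a log2 difference of 2.55 (SE 0.20) and 2.01 with a common median.

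The carbohydrate kinases of the pfkB type, AT1G17160 and AT1G06730, were of like size at both ages. AT1G17160 had 2.32, 2.33, 2.01 and 1.81 at 4 weeks, against 0.0355, 0.0973, 0.0562 and 0.0996 at 3 weeks. AT1G06730 had 1.73, 1.69, 2.09 and 2.19 at 4 weeks, against 0.0664, 0.113, 0.0657 and 0.0692 at 3 weeks. Their replicates moved in opposite directions at 4 weeks, since 1 and 2 were the higher ones for AT1G17160 and the lower ones for AT1G06730. AT3G04650, an FAD- and NAD(P)-binding oxidoreductase, had a 4-week mean of 1.99 ± 0.161 and a 3-week mean of 0.0594 ± 0.0142 (SD, n = 4 each).

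AT5G03370, of the acylphosphatase family, and AT2G27680, an aldo-keto reductase, had the smallest log2 differences of the metabolic members. AT5G03370 had 1.26, 1.25, 0.996 and 1.05 at 4 weeks, against 0.183, 0.0874, 0.270 and 0.255 at 3 weeks. AT2G27680 had 1.04, 0.927, 1.05 and 1.06 at 4 weeks, against 0.156, 0.179, 0.130 and 0.108 at 3 weeks. The deposited means were 5.73-fold and 7.12-fold higher at 4 weeks and both log2 differences were 0.48, with SEs of 0.18 and 0.11. With a common median both turned negative, to -1.30 and -1.08.

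Of the members 8 act on RNA or in organelle gene expression, with 4-week means from 0.895 to 1.56. AT3G27550, a protein with the CRM RNA-binding domain, had 1.41, 1.54, 1.56 and 1.73 at 4 weeks, against 0.00166, 0.00335, 0.00397 and 0.0170 at 3 weeks. It had the highest ratio of deposited means among the genes above 0 on all arrays, 241-fold, which rests on 3-week values close to 0. Its normalized log2 difference was 3.04 (SE 0.15).

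AT1G61990 and AT1G62010 encode proteins of the mTERF family, which act in organelle transcription, and only 1 protein-coding gene lies between them in the annotation. AT1G61990 had 1.61, 1.55, 1.37 and 1.3 at 4 weeks, against 0.0520, 0.0145, 0.0872 and 0.0981 at 3 weeks. AT1G62010 had 1.55, 1.47, 1.64 and 1.34 at 4 weeks, against 0.000728, 0, 0.166 and 0.0894 at 3 weeks. At 3 weeks both were lowest on replicate 2 and higher on replicates 3 and 4 than on 1 and 2. Neighbouring genes of this family resemble each other in sequence, and whether the probes tell them apart was not tested.

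The pseudouridine synthases AT4G21770 and AT2G30320 modify RNA bases. AT2G30320 had 0.873, 1.06, 0.869 and 0.914 at 4 weeks, against 0.0937, 0.0512, 0.0531 and 0.0671 at 3 weeks. Its log2 difference was 0.82 (SE 0.12), and -0.08 with a common median. AT4G21770 was above 0 on a single 3-week array, as given above, with a log2 difference of 2.26 (SE 0.27).

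Pentatricopeptide proteins bind organelle transcripts at chosen sites. AT2G19280 of this family had 1.45, 1.42, 1.62 and 1.53 at 4 weeks, against 0.0498, 0.0378, 0.285 and 0.212 at 3 weeks. The 3-week values fell apart by replicate pair, with 3 and 4 high, and the log2 difference of 1.38 (SE 0.34) turned to -0.07 with a common median. AT2G46050 had 0.896, 0.978, 0.827 and 0.906 at 4 weeks, against 0.102, 0.103, 0.113 and 0.0222 at 3 weeks, and AT1G70200, an RNA-binding protein of the chloroplast, 0.920, 0.875, 0.896 and 0.890, against 0.133, 0.114, 0.0887 and 0.0530. Both were close to the 4-week line, and their log2 differences of 0.71 (SE 0.27) and 0.53 (SE 0.15) turned to -0.28 and -0.65 with a common median.

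The genes of regulation and stress are LAS, AILP1, MAMI, SIS and AT5G05400. MAMI, a membrane-associated protein named for its induction by mannitol, had 1.67, 1.53, 1.27 and 1.35 at 4 weeks, against 0.224, 0.205, 0.146 and 0.157 at 3 weeks. At both ages replicates 1 and 2 were above 3 and 4. Its log2 difference was 0.99 (SE 0.11), and -0.93 with a common median. SIS, a serine-rich protein named for its induction by salt, had 0.938, 1.07, 0.852 and 0.966 at 4 weeks, against 0.0527, 0.0507, 0.0516 and 0.0616 at 3 weeks. Its 3-week values lay close together, and its log2 difference was 0.97 (SE 0.07), and 0.21 with a common median. AT5G05400, a disease resistance protein of the NB-ARC class, had 1.68, 1.74, 1.46 and 1.35 at 4 weeks, against 0.00762, 0, 0.0260 and 0.0245 at 3 weeks. Its log2 difference was 2.75 (SE 0.19).

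The protein kinases AT5G40030 and AT2G46850 were among the 10 highest mean ranks at 4 weeks. AT5G40030 had 2.13, 2.23, 2.63 and 2.69 at 4 weeks, against 0.0810, 0.0821, 0.0965 and 0.0997 at 3 weeks. AT2G46850 had 2.40, 2.66, 2.1 and 1.98 at 4 weeks, against 0.00800, 0, 0.0298 and 0.0208 at 3 weeks. For AT5G40030 replicates 3 and 4 were higher than 1 and 2 at both ages, whereas AT2G46850 had the opposite order at 4 weeks and the same order at 3 weeks. The log2 differences were 2.61 (SE 0.16) and 3.66 (SE 0.19), and 0.82 and 2.96 with a common median. AT3G24190, an ABC1-like kinase of the plastid, had 1.19, 0.963, 1.1 and 0.975 at 4 weeks, against 0.0667, 0.0150, 0.0766 and 0 at 3 weeks.

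Products of 5 members act in protein turnover, with log2 differences from 1.26 to 2.56. AT5G49840 encodes a ClpX-type chaperone subunit of the mitochondrial Clp protease. It had 1.14, 1.05, 1.34 and 1.33 at 4 weeks, against 0.0466, 0.0204, 0.0257 and 0.0202 at 3 weeks. AT2G03200 is an aspartyl protease, with 1.01, 1.05, 0.861 and 0.871 at 4 weeks, against 0.0760, 0.0660, 0 and 0.0364 at 3 weeks. Replicate pairs separated at 4 weeks for both, in opposite directions. The F-box proteins with Kelch repeats, AT1G51550 and AT1G22040, had log2 differences of 1.26 (SE 0.15) and 2.08 (SE 0.23). With a common median these were 0.09 and 2.08. AT3G44810 is the third F-box gene.

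Of the 3 members of membranes and cell wall, AT1G74730 encodes a thylakoid protein that affects the stacking of grana. It had 1.17, 1.09, 0.852 and 0.896 at 4 weeks, against 0.00213, 0, 0.0242 and 0.0393 at 3 weeks. The order of the replicate pairs was opposite at the ages, with 1 and 2 high at 4 weeks and low at 3 weeks. AT1G34270, of the exostosin family of glycosyltransferases, had 1.09, 1.11, 1.07 and 1.16 at 4 weeks, against 0.00362, 0.0105, 0.0270 and 0.0252 at 3 weeks. AT5G19750, of the Mpv17 family of membrane proteins, had 1.04, 0.936, 0.758 and 0.850 at 4 weeks, against 0.0147, 0.0184, 0.0229 and 0.0118 at 3 weeks.

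The 44 members without a role here had 4-week means from 0.924 to 6.52. Some of them were steady at 4 weeks, such as AT5G52960, with 0.985, 0.998, 0.976 and 0.986, and AT2G15440, with 1.29, 1.27, 1.27 and 1.31. The 3-week values of these genes were 0.00108, 0.0304, 0.0121 and 0.0604 for AT5G52960, and 0.0596, 0.0196, 0.0234 and 0.0251 for AT2G15440. The same gene could thus be even at 4 weeks and uneven at 3 weeks. Others varied most at 4 weeks, where the largest coefficients of variation were 31.7% for AT5G02710, 29.3% for AT3G09080, 25.5% for AT3G57570, 23.8% for AT3G51500 and 19.4% for AT3G19120. AT3G09080 had 1.82, 1.98, 1.45 and 0.957 at 4 weeks, and AT3G51500 had 0.780, 0.795, 1.27 and 1.05.

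The rule did not use the within-age spread itself, but it bounded the intensities, with which the spread can change. No comparison at matched intensity was made. The coefficient of variation at 4 weeks had a median of 9.59% over the 79, with a range from 0.901% to 31.7%, beside medians of 8.37% over the 51 genes bright at both ages and 13.8% over all probes with 1 gene. The order of the 79 was more alike between 4-week arrays than between 3-week arrays, with Spearman correlations of 0.84 to 0.92 at 4 weeks and 0.60 to 0.75 at 3 weeks. The rule set the members bright at 4 weeks and dimmer at 3 weeks, so nothing is read from this difference. At 4 weeks the correlation was 0.92 between replicates 1 and 2 and 0.92 between 3 and 4, and 0.84 to 0.88 across these pairs. Replicates 1 and 2 both lay above 3 and 4 for 27 of the 79 (34.2%), beside 39.2% of the 2862 probes above 0 on every 4-week array. They both lay below for 19 of the 79 (24.1%), beside 17.5% of those probes. The members thus split by replicate pair about as often as other probes did, and in both directions.

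**Figure D3:**
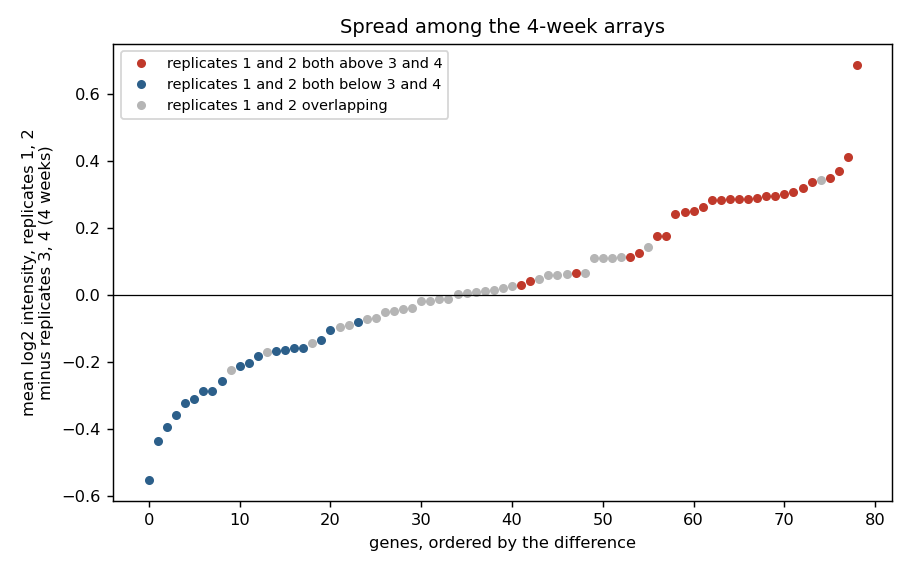
Difference in mean log2 deposited intensity between replicates 1 and 2 and replicates 3 and 4 at 4 weeks (vertical axis), for the 79 members in order of that difference (horizontal axis). It runs from -0.55 for AT3G51500 to 0.69 for AT3G09080, with 27 genes higher without overlap (red) and 19 lower without overlap (blue).

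How much higher a member was at 4 weeks depended on how the arrays were scaled. Among the 58 members above 0 on all 3-week arrays, the ratio of deposited means ran from 5.73 to 241 with a median of 32.8. It was above the ratio of the array medians, 15.2, for 44 of them and below it for 14. After quantile normalization the log2 differences of the 79 ran from 0.28 for AT4G08940 to 4.36 for AT3G52070, with a median of 2.08, beside a median of 0 over all probes. Without scaling all 79 were higher at 4 weeks and the median was 2.33, but the 3-week values of 76 of them lay below the floor of 0.263 on every array. For these the unscaled difference is that of the 4-week level from the floor, smaller than that of the deposited means. With a common median 65 were higher and 14 lower at 4 weeks, and the median was 1.43. The 14 were the genes whose ratio of deposited means was below 15.2, AT5G03370, AT4G08940, AT3G59300, AT2G27680 and MAMI among them.

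**Figure D4:**
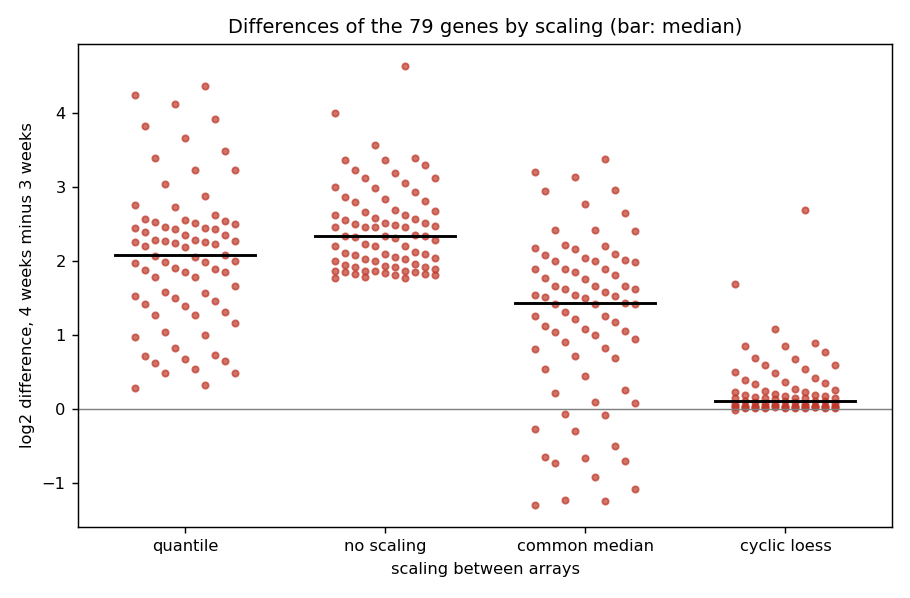
Log2 difference, 4 weeks minus 3 weeks (vertical axis), for each of the 79 members under 4 ways of scaling the arrays (horizontal axis), with the median as a bar. The medians are 2.08 after quantile normalization, 2.33 without scaling, 1.43 with a common median and 0.10 under cyclic loess, where 78 genes stay above 0 and AT3G19120 does not. Without scaling and under loess, 76 of the 79 sat at the floor of 0.263 at 3 weeks, which sets their differences there.

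The 79 genes shared little else that the files allow to be read. By locus code 19 lay on chromosome 1, 13 on chromosome 2, 15 on chromosome 3, 12 on chromosome 4 and 20 on chromosome 5, out of 174, 124, 130, 120 and 143 probes with 1 gene. In the order of protein-coding genes, AT1G61990 with AT1G62010 and AT4G21770 with AT4G21820 were the pairs with fewer than 10 genes between them. Of 210 loci on 15 lists of chloroplast functions, histones and organ markers, 16 had a probe with 1 gene. Of these 0 were members, beside 11.4% of all probes with 1 gene, and nothing is read from so small a number. The 3 genes of tetrapyrrole synthesis among them, HEMA3, CHLM and AT1G74470, were left out by name and would not otherwise have been members. Probes with several genes and unnamed probes were not searched for these loci. Among the 16, 4 passed limma's test as higher at 4 weeks, beside 29.2% of all probes. Another 7 passed as lower, beside 27.4% of all probes, and 5 did not pass. Of those passing as lower, CHLM and AT4G01310 turned to 1.06 and 0.77 without scaling, and the others stayed negative. No marker of flowers, roots or senescence on these lists had a probe with 1 gene. Of the leaf markers only PRK, the phosphoribulokinase of the Calvin cycle, had such a probe. It was in the top 20% at both ages but lower at 4 weeks, with 0.951 ± 0.13, against 7.23 ± 1.45 at 3 weeks (SD, n = 4 each) and a limma log2 difference of -3.33 (SE 0.11, adjusted p = 4.37e-07). All 3 H3 histone genes with such a probe, AT1G13370, AT1G09200 and AT5G65360, passed as higher, with 3.33, 1.79 and 0.55. However, AT1G13370 turned to -0.44 with a common median and the others were at 0.01 under cyclic loess. With 1 marker among the probes with 1 gene, the organ behind the RNA could not be checked from them. The part of these listed genes in the members' differences was not tested. In whole plants or organs, fewer cells of a type and less RNA per cell cannot be told apart.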

How the data were processed

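Array intensity values for 3439 probes and 8 samples stand in 1 table deposited by the authors; how they were scaled, background-corrected or bounded at 0 is not given in the sources used here. Probes were paired with genes by the platform annotation (692 with 1 gene, 870 with several, 1877 unnamed here), and symbols were updated through Entrez numbers with the RefSeq table of TAIR10.1, which held 690 of the 692. No coordinates or sequences are given. Intensities were quantile-normalized, raised to a floor of 0.123 (the normalized value at rank 1099, up to which the array richest in zeros holds only zeros) and converted to log2. limma 3.58.1 in R 4.3.3 was fitted to all probes with age alone (lmFit and eBayes, two-sided, Benjamini-Hochberg threshold 0.05), after a run on simulated data. A log2 difference is 4 weeks minus 3 weeks. Means carry SD over 4 arrays, and 4 arrays per age limit the precision.

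The members, lists and tests were chosen with earlier results of these data known. Genes with values in the text are those with the 10 highest mean ranks at 4 weeks, the 10 largest gains, the 5 highest and 5 lowest mean ranks at 3 weeks, the 3 nearest each line, the 5 most variable, those with a symbol and those with a role; AT4G21820, AT5G52960, AT2G15440 and the genes named for overlapping or turning were picked with their values known. The roles were assigned after the members were known. Deviations of same-numbered arrays from their age means correlated across ages with r of 0.171, 0.213, 0.171 and 0.236. Different-numbered arrays within replicates 1 and 2, or within 3 and 4, correlated across ages with r of 0.051 to 0.106. The main fit did not use the replicate numbers, which come from the sample titles, so its SEs take no account of pairs. The replicate block was an alternative fit. No 2 arrays of an age were identical. Alternatives were other scalings, floors and probe filters, averaged replicate pairs, left-out arrays, and other lines, medians and filters for the rule.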

Additional observations from a re-analysis of the deposited data

Results flagged for a closer look

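For 26 members the 4 arrays of each age were searched for a lone high or low array in deposited intensity, 52 groups in all. The 26 were those named for high rank, large gain, high or low 3-week rank, high variation or a symbol. Dixon's 95% limit on the gap to the nearest array, as a share of the range, was passed in 7 groups. Chance alone flags about 1 group in 20, but all 7 genes were named for a low 3-week rank or for high variation, so the number of flags says nothing. In 5 groups at 3 weeks the gap was 1 because the other 3 arrays were listed at 0, a pattern the rule let in by asking for a value above 0 on 1 array: AT4G21770 (replicate 3, 0.0326), AT2G33180 (replicate 4, 0.00656), AT1G06510 (replicate 3, 0.0238), AT3G50180 (replicate 2, 0.0219) and AT3G44810 (replicate 3, 0.00557). AT3G19120 at 3 weeks had 0.279 on replicate 3, against 0.0866, 0.0739 and 0.0890 on the other arrays, a gap of 0.926. AT5G02710 at 4 weeks had 1.45 on replicate 1, against 0.797, 0.860 and 0.833, a gap of 0.905. Without that array AT5G02710 did not meet the rule.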

How the results depend on the processing

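The number of members was 79. It was 50 with the top 10% at both ages (38 of them among the 79), 103 with the top 30% (62 among the 79), 79 with median ranks (78 among the 79) and 58 when a gene had to be above 0 on all 3-week arrays. Leaving out 1 array gave 75 to 83, and 68 of the 79 were kept each time. The others were lost without 1 array: AT3G57570, AT5G03370 and AT3G50180 without 3-week replicate 2, AT4G21770, AT1G06510, AT3G44810 and MAMI without 3-week replicate 3, AT2G33180 and MAMI without 3-week replicate 4, AT5G02710 and AT5G19750 without 4-week replicate 1, and AT3G51500 without 4-week replicate 3. Over all probes 1946 were past the threshold, 1004 higher and 942 lower at 4 weeks. The split was 1710 higher and 263 lower without scaling, and 688 and 1160 with a common median. Cyclic loess gave 525 in all, 157 higher and 368 lower, and the 1840 probes above 0 on all arrays gave 534 higher and 935 lower. Of the members 73 were past it, and 23 under cyclic loess; with a common median 7 were past it as lower. The 3-week values of 76 of the 79 lay below the floor of the unscaled data, 0.263, on every array, so their differences without scaling and under loess rest on the 4-week level and that floor. The median log2 difference of 2.08 was 2.33 without scaling, 1.43 with a common median, 0.10 under cyclic loess, 1.77 when the floor was raised to the median probe and 1.93 over the 58 members above 0 on every array. Leaving out 1 array gave 1.92 to 2.27 for it, 73 to 75 members and 1830 to 1892 probes past the threshold. With the replicate number as a block 1843 probes and 71 members passed and the median was 2.08. Averaging replicates 1 and 2, and 3 and 4, left 1544 probes and 64 members. With a common median 14 of the 79 turned negative, and under cyclic loess AT3G19120 did; none of the 17 with the highest 4-week ranks or largest gains did, which their choice largely fixes. Signal over background is not known, so values near 0 at 3 weeks bound nothing.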

Other observations

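The rank pattern of the members was not limited to probes with 1 gene. Of all 3439 probes 391 were in the top 20% at 4 weeks and not at 3 weeks, and 297 were in it at both ages. The 391 include 96 probes paired with several genes and 205 that are unnamed here.

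The probes whose numbers directly adjoin those of members were also examined, 119 in all without the members. Their median mean rank was 45.8 at 4 weeks and 53.2 at 3 weeks, beside 49.6 and 47.5 over all probes, and 19 of them (16.0%) were in the top 20% at 4 weeks. The layout of the probes on the array is not given, so adjoining numbers need not be adjoining spots.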
